A study of Prunus armeniaca and Prunus mume with 8 samples.

Results

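Beta-galactosidases were examined in fruit of 2 species, Prunus mume (Japanese apricot, cultivars Ruantiaohongmei and Xiyeqing) and Prunus armeniaca (apricot, cultivars Manao and Zhenkui). The probes were all non-control probes that the authors' deposited 2-fold lists describe as a beta-galactosidase, which gave 7 of the 10384 probes on the array. Of these, 4 were brighter in P. mume, with log2 differences of 2.19 to 3.10 (4.56-fold to 8.60-fold), and 3 were brighter in P. armeniaca (2.83-fold to 3.99-fold). The deposited lists that supplied the descriptions hold probes differing at least 2-fold between the species or between a pair of cultivars. The probes were thus selected on these differences, which are given as a description, and no conclusion is drawn from tests of them.

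Beta-galactosidases remove galactose from the ends of sugar chains. In fruit they act on the galactan side chains of pectin and on other cell wall polysaccharides, and the loss of wall galactose is a well known feature of softening in many fleshy fruits. Plants carry the enzyme as a gene family, whose members are used in different organs and at different stages of fruit growth and ripening. In stone fruits they work on the wall beside polygalacturonases, arabinofuranosidases, xyloglucan-modifying enzymes and expansins.

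Each cultivar was measured on 2 one-colour arrays labelled with Cy3, so each species had 4 arrays, and all 8 lay on 1 slide. The labels give the tissue as fruit with stages 1 to 8 mixed, picked from week 3 until week 13 after full bloom, with no treatment, and only RNA that met a quality standard was hybridised. The labels name neither the stages pooled for an array nor separate trees for the 2 arrays of a cultivar, so the spread between arrays, and every p-value built on it, may be technical. Manao shared a slide row with Ruantiaohongmei and Xiyeqing shared the other with Zhenkui, so the slide row cannot be told apart from the pair of cultivars. In such bulk tissue, fewer cells of a type and less RNA per cell cannot be told apart either.

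Signals are given as log2 relative to the array's 75th percentile, so 0 equals that percentile. A level of 1 probe cannot be set against the level of another probe. Between 7806 and 8982 probes per array stood well above background, and the ratio of spot to local background had a median of 6.35 to 8.15. All 7 beta-galactosidase probes, with 1 spot each, were well above background and unsaturated on all 8 arrays, so none entered through 1 group alone. The number of arrays limits the precision of each mean. A species mean is limited further by its cultivars, which were fewer than its arrays, and the SDs given for a species count arrays.

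By GenBank description, 5 of the 7 probes represent peach (P. persica) sequences, 1 a Japanese plum (P. salicina) sequence and 1 an apricot (P. armeniaca) sequence, and none a P. mume sequence. The 4 probes brighter in P. mume were the peach beta-galactosidase protein 1 (EF568777.1), the peach beta-galactosidase protein 2 (EF568776.1), a plum partial sequence (EU370208.1) and a peach partial sequence (AY987025.1). The 3 dimmer probes were the apricot GAL1 (AF184080.1), a complete peach sequence (AY874412.1) and a partial sequence named peach beta-galactosidase 3 (GU462128.1). Probe sequences were not used here, so how many genes the 7 probes represent, and how well each probe pairs with the RNA of either species, was not tested.

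EF568777.1, the peach beta-galactosidase protein 1, stood at 5.41 and 4.29 on the Ruantiaohongmei arrays, at 2.46 and 5.20 on the Xiyeqing arrays, at 1.56 and 2.33 on the Manao arrays, and at 0.35 and 0.71 on the Zhenkui arrays (replicates 1 and 2 in that order, as in the sentences that follow). Every P. mume array lay above every P. armeniaca array, although the lower Xiyeqing array came close to the higher Manao array. The mean was 4.34 ± 1.34 (SD, n = 4) over the P. mume arrays and 1.24 ± 0.89 over the P. armeniaca arrays, a difference of 3.10 ± 0.69 (SE), or 8.60-fold. Of the 9125 probes measured well enough to be compared, 1.63% were higher in P. mume by more than this.

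EU370208.1, the partial plum sequence, gave 5.30 and 4.06 in Ruantiaohongmei, 2.24 and 5.06 in Xiyeqing, 1.70 and 2.54 in Manao, and -0.01 and 0.44 in Zhenkui. Here the species overlapped, since Xiyeqing replicate 1 lay below Manao replicate 2. P. mume averaged 4.16 ± 1.39 (SD, n = 4) and P. armeniaca 1.17 ± 1.17, a difference of 3.00 ± 0.77 (SE), or 7.98-fold. The arrays ranked in the same order for this probe as for EF568777.1 within each species.

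AY987025.1, the partial peach sequence, was the dimmest of the 7, with a ratio of spot to local background of 2.30 to 25.1. Its signals were 0.26 and -1.12 in Ruantiaohongmei, -2.89 and -0.37 in Xiyeqing, -3.52 and -2.49 in Manao, and -5.34 and -5.03 in Zhenkui. Xiyeqing replicate 1 again lay among the Manao arrays, and both Zhenkui arrays were lowest. The species means of -1.03 ± 1.36 (SD, n = 4) and -4.09 ± 1.33 differed by 3.06 ± 0.80 (SE), or 8.36-fold, a size that depended on the background correction and came to 1.87 on the log2 scale with the normexp correction.

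EF568776.1, the peach beta-galactosidase protein 2, had a smaller difference and tighter arrays. It stood at 5.63 and 4.69 in Ruantiaohongmei, 3.76 and 4.65 in Xiyeqing, 2.77 and 2.75 in Manao, and 2.10 and 2.37 in Zhenkui. All P. mume arrays lay above all P. armeniaca arrays, with means of 4.68 ± 0.76 (SD, n = 4) and 2.50 ± 0.32. The difference was 2.19 ± 0.37 (SE), or 4.56-fold.

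The other 3 probes ran the opposite way. AF184080.1, the apricot GAL1, gave 1.97 and 1.71 in Ruantiaohongmei, 2.47 and 1.98 in Xiyeqing, 4.18 and 3.95 in Manao, and 4.29 and 3.51 in Zhenkui. The 4 P. mume arrays lay below the 4 P. armeniaca arrays. P. mume averaged 2.03 ± 0.32 (SD, n = 4) and P. armeniaca 3.98 ± 0.34, a difference of -1.95 ± 0.24 (SE), so that the signal was 3.86-fold higher in P. armeniaca.

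AY874412.1, the complete peach sequence, was the steadiest between the arrays of P. armeniaca. Its values were 1.73 and 2.09 in Ruantiaohongmei, 2.55 and 1.90 in Xiyeqing, 3.91 and 3.97 in Manao, and 4.17 and 4.21 in Zhenkui. The species did not overlap, and Xiyeqing replicate 1 was the highest P. mume array. P. mume averaged 2.07 ± 0.35 (SD, n = 4) and P. armeniaca 4.06 ± 0.15, which was 3.99-fold higher (log2 difference -1.996 ± 0.21, SE).

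GU462128.1, the peach beta-galactosidase 3, had the smallest difference of the 7. It stood at 1.64 and 1.43 in Ruantiaohongmei, 2.04 and 1.69 in Xiyeqing, 3.31 and 3.18 in Manao, and 3.51 and 2.79 in Zhenkui. P. mume was again below P. armeniaca on every array. The means were 1.70 ± 0.25 (SD, n = 4) and 3.20 ± 0.30, a difference of -1.50 ± 0.21 (SE), or 2.83-fold, and 5.62% of the tested probes were lower in P. mume by more than this.

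**Figure D1:**
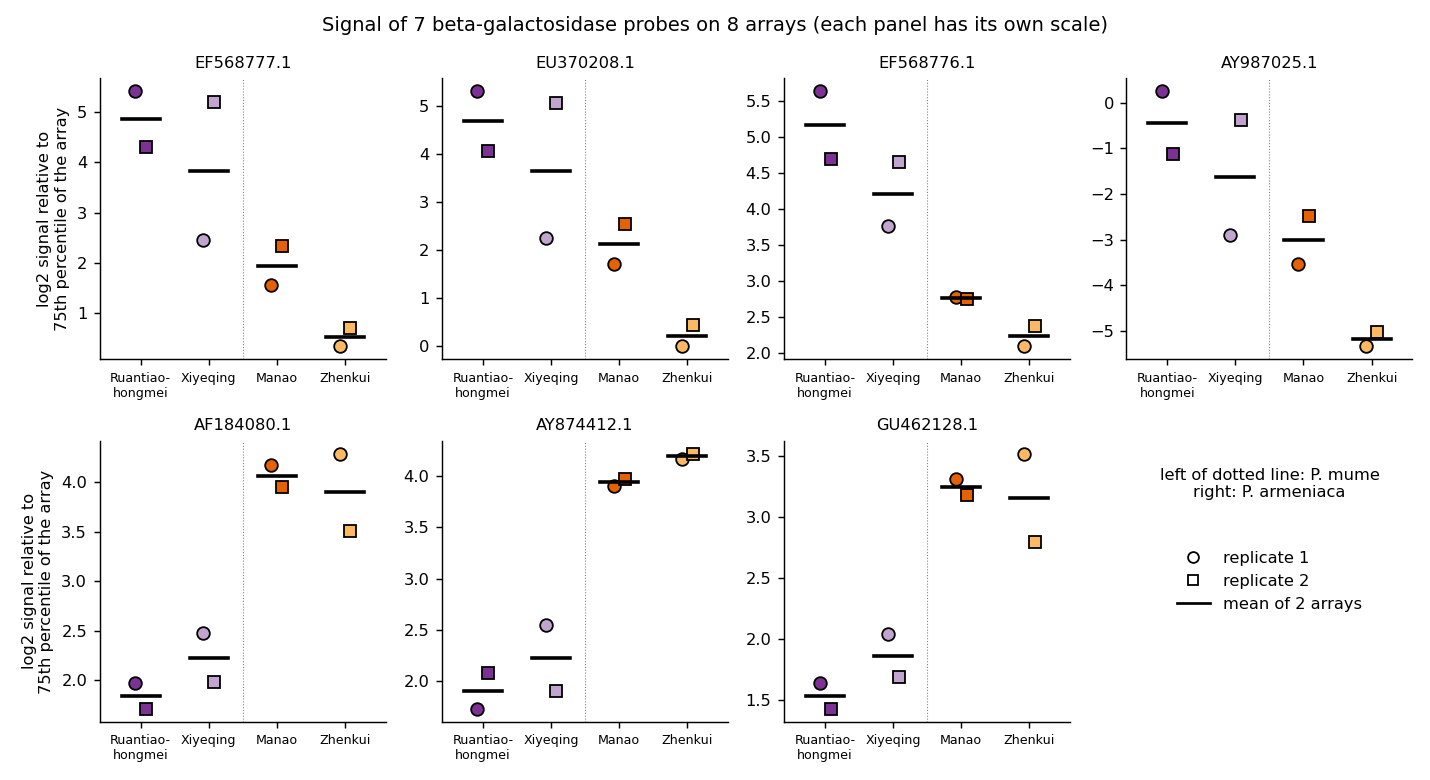
Signal of each of the 7 beta-galactosidase probes on the 8 arrays, as log2 relative to the array's 75th percentile (each panel has its own vertical scale). Circles are replicate 1, squares replicate 2 and bars the mean of the 2 arrays of a cultivar. In the upper 4 panels P. mume, left of the dotted line, stands higher, with Xiyeqing replicate 1 the lowest P. mume array each time. In the lower 3 panels P. mume stands lower on every array.

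The arrays of the 2 species did not overlap for 5 of the 7 probes, with P. mume above for 2 (EF568777.1 and EF568776.1) and below for 3. Over all tested probes 39.9% did not overlap, 16.3% with P. mume above and 23.7% with P. mume below. In the species comparison fitted with limma over all tested probes, with cultivar as a random block, all 7 probes had an adjusted p under 0.05 (called, in what follows), 4 higher and 3 lower in P. mume. Of all tested probes 36.6% were called, 15.1% higher and 21.5% lower, and of the 650 tested probes with a description 75.5% were called, 27.7% higher and 47.8% lower. Because the rule drew on this same contrast, nothing is read from the count of 7. The median difference was -0.11 over all tested probes and -0.86 over the 650 tested probes with a description.

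The deposited values also show where membership of a single list was close, although 1 list was enough for a probe to be chosen. In the authors' deposited table of Xiyeqing against Zhenkui, GU462128.1 was listed at -1.08 on the log2 scale (2.12-fold), the smallest listed difference of a beta-galactosidase. EU370208.1, at 0.99 between Ruantiaohongmei and Xiyeqing in the deposited log2 values, was just outside that list. All 7 probes were in the deposited list of each of the 4 pairs of cultivars from different species, 3 (EF568777.1, EU370208.1 and AY987025.1) were in the list of Manao against Zhenkui, and 1 (AY987025.1) was in the list of Ruantiaohongmei against Xiyeqing. Beta-galactosidase probes outside every list would carry no description and are not counted here.

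By cultivar, all 4 probes brighter in P. mume had the same order of means, Ruantiaohongmei, Xiyeqing, Manao, Zhenkui. For EF568777.1 these means were 4.85 ± 0.79 (SD, n = 2), 3.83 ± 1.94, 1.95 ± 0.54 and 0.53 ± 0.26. The arrays of Ruantiaohongmei and Xiyeqing overlapped for EF568777.1, EU370208.1 and AY987025.1, and those of Xiyeqing and Manao overlapped for EU370208.1 and AY987025.1. Both Manao arrays were above both Zhenkui arrays for all 4, by 0.52 (EF568776.1) to 2.18 (AY987025.1) in the means.

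For the 3 probes dimmer in P. mume, Ruantiaohongmei had the lowest mean and Xiyeqing the next, at differences of -0.39 to -0.32 with SEs of 0.27 to 0.32. AY874412.1 stood at 1.91 ± 0.25 (SD, n = 2) in Ruantiaohongmei, 2.23 ± 0.46 in Xiyeqing, 3.94 ± 0.04 in Manao and 4.19 ± 0.03 in Zhenkui, and for this probe both Zhenkui arrays lay above both Manao arrays. For AF184080.1 and GU462128.1 the Manao arrays lay between the 2 Zhenkui arrays, and the means of these cultivars differed by 0.17 ± 0.32 (SE) and 0.09 ± 0.29.

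Within a species few differences were beyond the spread between arrays. Between Ruantiaohongmei and Xiyeqing 0 of the 7 were called by limma, 1 (EF568776.1) had an unadjusted p under 0.05, and 0.559% of all tested probes were called. The difference of EF568776.1 was 0.95 ± 0.40 (SE), and those of the other 3 brighter probes were 1.02 to 1.20 with SEs of 0.83 to 0.88. Between Manao and Zhenkui 0 of the 7 were called by limma, 1 (AY987025.1) had an unadjusted p under 0.05, and 0% of all tested probes were called. These pairs too were among the lists that chose the probes, so the counts are given as a description.

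Across species the cultivar pairs differed in how many probes were called. Xiyeqing against Zhenkui and Ruantiaohongmei against Zhenkui each had 7 of 7 called, against 28.2% and 34.9% of all tested probes. Ruantiaohongmei against Manao had 5 of 7, against 21.4%, without EU370208.1 and AY987025.1. Xiyeqing against Manao had 4 of 7, against 16%, namely EF568776.1 and the 3 dimmer probes. These comparisons share arrays and were used by the rule, so the counts do not bear on one another.

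The species difference was also taken within each slide row. Both row differences were among the comparisons whose lists chose the probes, and all 7 were listed in both. The lists bound the size of a difference and not its direction, and the row differences are given as a description. In row 1 of the slide, Ruantiaohongmei minus Manao was 2.91 for EF568777.1, 2.56 for EU370208.1, 2.57 for AY987025.1 and 2.40 for EF568776.1. In row 2, Xiyeqing minus Zhenkui was 3.30, 3.43, 3.55 and 1.98 for the same probes. For the 3 dimmer probes the row 1 and row 2 differences were -2.23 and -1.67 (AF184080.1), -2.03 and -1.96 (AY874412.1), and -1.71 and -1.29 (GU462128.1).

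The difference between the rows was made from these same values and is likewise a description. The first row minus the second came to -0.40 for EF568777.1, with a 95% interval of -3.19 to 2.39, and to -0.98 for AY987025.1, with an interval of -3.76 to 1.80. For EF568776.1 it was 0.42 (-0.90 to 1.74), and for EU370208.1 -0.87 (-3.79 to 2.05). The intervals also held 0 and were narrower for the dimmer probes, at -0.56 (-1.61 to 0.50) for AF184080.1, -0.07 (-0.96 to 0.82) for AY874412.1 and -0.42 (-1.37 to 0.54) for GU462128.1. By limma 0 of the 7 differences were called, 0 had an unadjusted p under 0.05, and 0.197% of all tested probes were called. The intervals of EF568777.1, EU370208.1 and AY987025.1 leave room for differences between the rows of several fold.

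**Figure D2:**
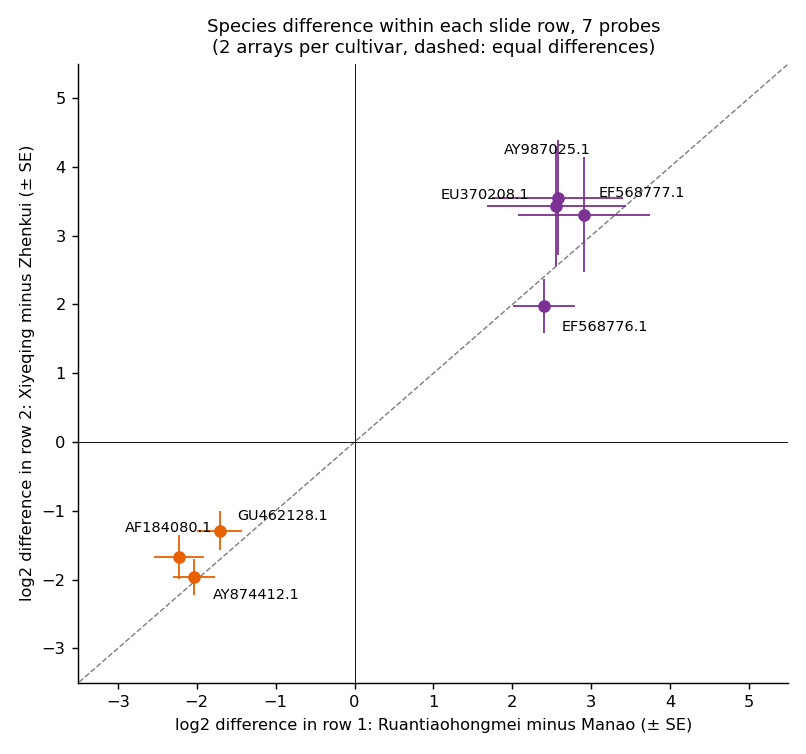
Species difference of the 7 beta-galactosidase probes within each slide row, Ruantiaohongmei minus Manao on the horizontal axis and Xiyeqing minus Zhenkui on the vertical axis, both in log2 units with SE bars (2 arrays per cultivar). The 4 purple points lie at 1.98 to 3.55 in both rows and the 3 orange points at -2.23 to -1.29, and the dashed line marks equal differences in both rows.

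The 2-fold bound of the lists is on cultivar means, not on the gap between the 2 arrays of a cultivar, and this gap was wide for 3 of the brighter probes in Xiyeqing. Replicate 1 minus replicate 2 was -2.74 for EF568777.1, -2.82 for EU370208.1 and -2.52 for AY987025.1. Only 1.24%, 1.14% and 1.52% of the tested probes had larger gaps in that cultivar, where the median gap was 0.33 in size. EF568776.1 differed less there, at -0.89, and 11.2% of the tested probes had a larger gap. The 3 dimmer probes were turned the other way, with replicate 1 above replicate 2 by 0.35 to 0.65.

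In Ruantiaohongmei replicate 1 was the higher array for all 4 brighter probes, by 0.94 to 1.37, where the median gap over all tested probes was 0.34. The gaps of the 3 dimmer probes there lay between -0.35 and 0.26. In Manao replicate 1 minus replicate 2 was -1.04 to 0.03 for the 4 brighter probes, and in Zhenkui -0.45 to -0.28. Ruantiaohongmei replicate 1 was thus the highest and Xiyeqing replicate 1 the lowest P. mume array for all 4 brighter probes, and Xiyeqing replicate 1 was the highest P. mume array for all 3 dimmer ones. Without Xiyeqing replicate 1 the species difference was 3.75 for EF568777.1, 3.66 for EU370208.1 and 2.47 for EF568776.1. All 7 probes were then called in the species comparison, beside 30.9% of all tested probes. The difference between Ruantiaohongmei and Xiyeqing depended on which Xiyeqing array was kept, and for EF568777.1 it was -0.35 without Xiyeqing replicate 1 and 2.39 without replicate 2.

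**Figure D3:**
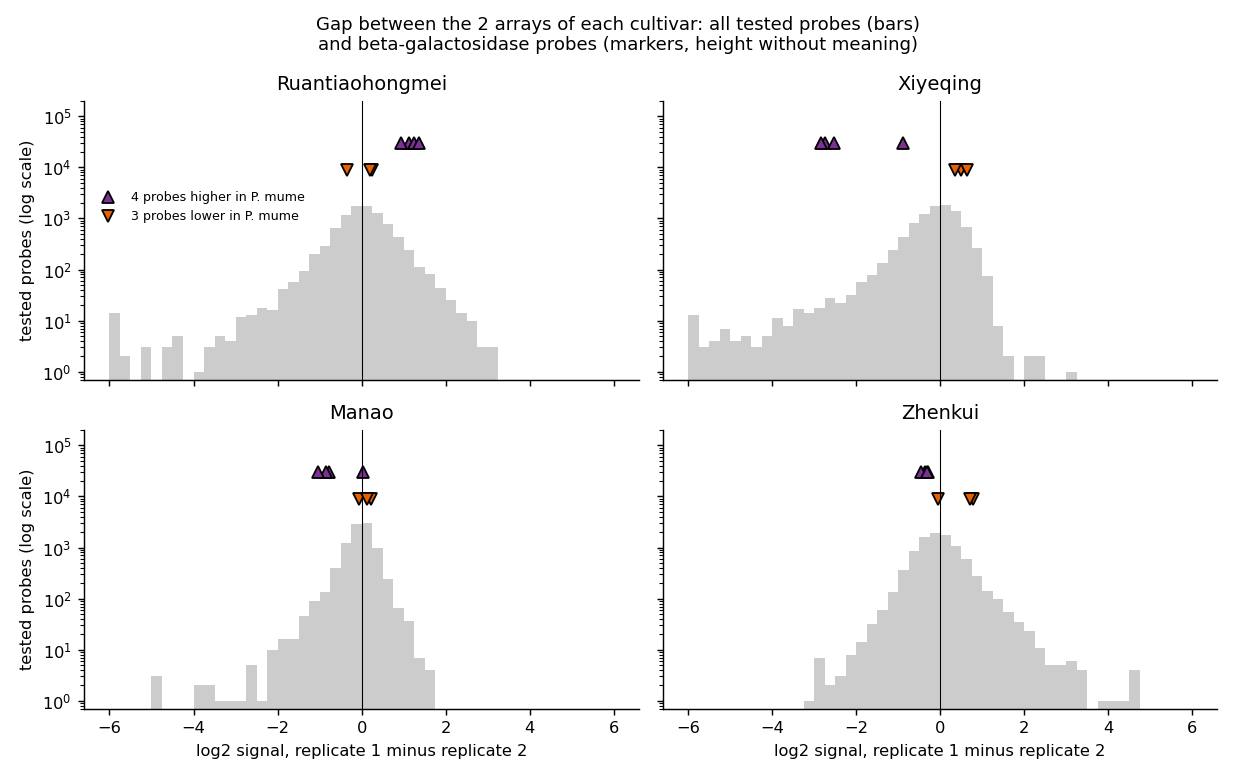
Distribution of the gap between the 2 arrays of each cultivar (log2 signal, replicate 1 minus replicate 2) over 9125 tested probes, on a log scale of probe counts, where the outermost bars also hold all gaps beyond 6. Triangles mark the 4 beta-galactosidase probes brighter in P. mume and inverted triangles the 3 dimmer ones, at heights without meaning. In Xiyeqing 3 of the triangles lie at -2.82 to -2.52, far in the left tail, and in Ruantiaohongmei all 4 lie at 0.94 to 1.37.

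Once the species means were taken away, the deviations of the 4 brighter probes over the 8 arrays correlated at r = 0.859 to 0.993 in the 6 pairs. The 3 dimmer probes were less alike. AF184080.1 and GU462128.1 correlated at r = 0.991, but AY874412.1 correlated with them at 0.319 and 0.302. Between the brighter probes and AY874412.1 the remaining r was -0.936 to -0.890. With AF184080.1 and GU462128.1 it was weaker, at -0.427 to -0.295. These are descriptions over 8 arrays that share the scaling of each array, and no test is attached.

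Among 226 described proteins outside the family, the probes nearest to each beta-galactosidase were found by the root mean square difference of centred log2 signals over the 8 arrays. For EF568777.1, EU370208.1 and AY987025.1 the same 3 probes were nearest, the major cherry allergen of the Pru av 1 group (AY540507.1), an apricot major allergen homolog (U93165.1) and an almond class III peroxidase (EF640707.1), at differences of 0.58 to 0.77. EF568776.1 was nearest to a peach glucose-6-phosphate dehydrogenase (DQ451556.1), an enzyme of the pentose phosphate pathway, at 0.33. It was next nearest to an apricot auxin-repressed protein (U93273.1) at 0.41 and to U93165.1 at 0.43.

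The neighbours of the dimmer probes lay at smaller differences, but this measure also shrinks with a probe's own spread between arrays. Counted by other tested probes as close as the nearest named one, AF184080.1 had 4 and AY874412.1 had 25. The 4 brighter probes had 6 to 12. GU462128.1 was nearest to the peach expansin exp1 (AF367459.1), at a root mean square difference of 0.11, and 0 other tested probes were as close. Expansins loosen the cell wall without cutting its polymers. AF184080.1 had the same nearest probe, at 0.19, followed by an almond dehydrin (DQ061115.1) at 0.30 and a sour cherry alpha-expansin (AF448467.1) at 0.31. GU462128.1 was next nearest to AF448467.1 at 0.19 and to a sweet cherry expansin 2 (AF297522.1) at 0.20. AY874412.1 was instead nearest to an almond heat shock protein 60 (AF489695.1) at 0.23, an apricot elongation factor 1 alpha (AY962821.1) at 0.27 and a peach catalase (AJ132444.1) at 0.32. For the 7 probes as a whole, up to 97 other tested probes were as close as a named one, most of them without a protein name.

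Other cell wall and ethylene synthesis genes with a description were set beside the beta-galactosidases, 39 probes in 7 lists, of which 34 were tested. They too were described only because the authors had listed them on these arrays, so their directions are a description. Together 16 were called higher and 5 lower in P. mume, and 13 were not called, with a median difference of 1.65. Of all tested probes 36.6% were called. Of the 650 tested probes with a description 75.5% were called, 27.7% higher and 47.8% lower, with a median difference of -0.86. In each of the 4 lists with more than 1 called probe, the called probes went in 1 direction. Polygalacturonase-inhibiting proteins supplied 9 of the 16 called higher. How many genes the probes of a list represent was not tested.

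Among enzymes that trim wall side chains, 3 of 4 probes were called higher in P. mume and 1 was not called. The 3 were alpha-L-arabinofuranosidases, which remove arabinose from pectin and arabinoxylan, at differences of 0.98 to 1.04, with FJ601844.1 averaging 2.62 ± 0.49 (SD, n = 4) over P. mume arrays and 1.58 ± 0.05 over P. armeniaca arrays. The beta-D-xylosidase AF362990.1 was not called, at 1.64 ± 1.097 (SE). The xyloglucan-modifying XET1 (AF534870.1), at 2.12 ± 1.12 (SE), was not called either. Both had very wide gaps in Xiyeqing, where replicate 1 minus replicate 2 was -5.67 for AF362990.1 and -5.24 for AF534870.1, the same direction as for the brighter beta-galactosidases.

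Of 10 expansin probes 4 were called lower in P. mume, 0 higher, and 6 were not called, with a median difference of -1.43. AF367459.1 averaged 2.44 ± 0.40 (SD, n = 4) over P. mume arrays and 4.05 ± 0.28 over P. armeniaca arrays, the direction of AF184080.1 and GU462128.1. Of 2 extensins, structural wall proteins, AF318173.1 was called lower at -1.30 ± 0.27 (SE). The word patterns missed 3 wall enzyme probes, which were added after their values were seen and are not in the counts. The endo-beta-1,4-glucanase eg4 (AJ890498.1) was called lower, at -1.52 ± 0.24 (SE), and the pectin esterase EF640684.1 was called lower, at -0.92 ± 0.24. The other endo-beta-1,4-glucanase, X96853.1, was not called, at -0.21 ± 0.54.

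Endopolygalacturonases cut the pectin backbone. Of 6 described probes 5 were left untested, because they stood well above background only on Ruantiaohongmei replicate 2, at 4.34 to 5.72, and on Xiyeqing replicate 2, at -1.11 to 0.34, and on 0 of the other 6 arrays. In Xiyeqing replicate 2 was thus the higher array, as for the 4 brighter beta-galactosidase probes. In Ruantiaohongmei the endopolygalacturonases were higher on replicate 2, and the 4 brighter beta-galactosidase probes on replicate 1. The sixth endopolygalacturonase probe, DQ340809.1, differed between species by 1.77 ± 1.35 (SE) and was not called, and in Xiyeqing its replicate 1 minus replicate 2 was -2.39. Stages per array are not labelled, and the part of fruit stage in these array differences was not tested.

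Polygalacturonase-inhibiting proteins, which block fungal polygalacturonases, had the largest differences of the 7 lists, with all 9 probes called higher at 5.59 to 7.22. AY903225.1, the largest, was 5.73 with the normexp correction. Of 7 probes for the last steps of ethylene synthesis, 4 were called higher, all of them ACC oxidases, and the 3 ACC synthases were not called. The ACC oxidase AJ890086.1 averaged 2.41 ± 1.39 (SD, n = 4) over P. mume arrays and 0.47 ± 0.63 over P. armeniaca arrays, and overlapped between species. The median gap of Xiyeqing replicate 1 to replicate 2 was -1.95 over the inhibitor list and -1.65 over the ethylene list, and 0.06 over the expansins.

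**Figure D4:**
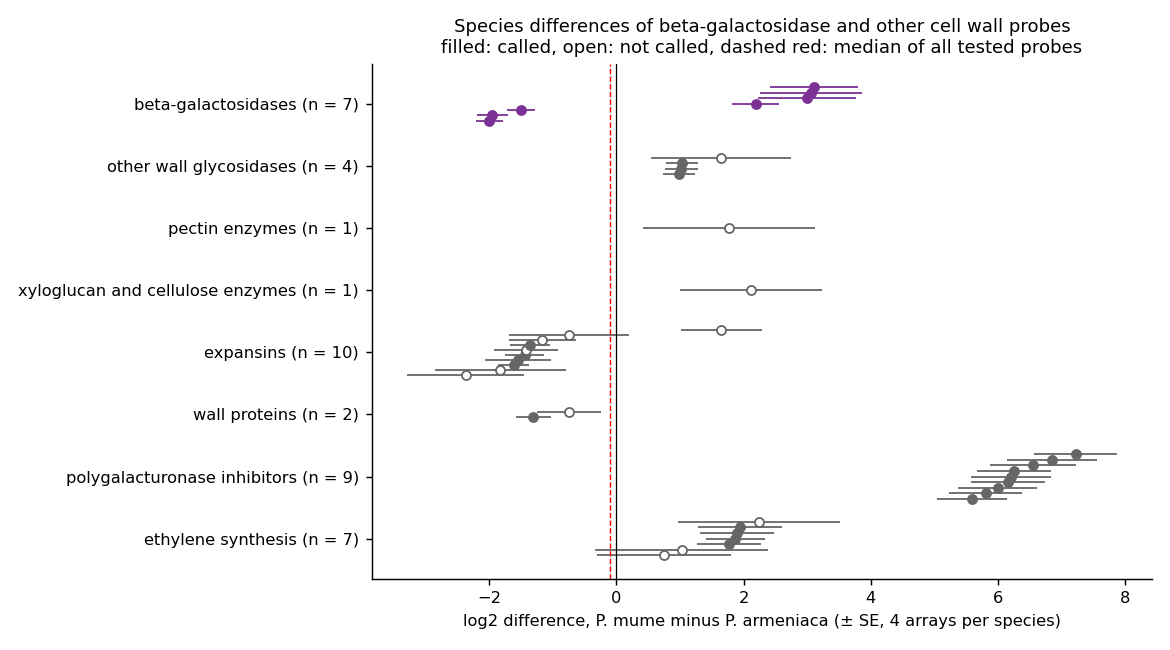
Difference between species (P. mume minus P. armeniaca, log2 units, with SE bars, 4 arrays per species) for the 7 beta-galactosidase probes and 34 other tested probes in 7 lists. Filled points were called and open points were not, and the dashed red line is the median of all tested probes, -0.11. The median of the tested probes with a description, not drawn, was -0.86. The beta-galactosidases have called probes on both sides of 0, at -1.996 to -1.50 and at 2.19 to 3.10.

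Reference genes and markers of other tissues and stages were counted in the same way. Of 7 reference gene probes (actins, tubulins, elongation factor and ubiquitin carrier) 6 were called lower in P. mume and 1 higher, with a median of -1.11. Their summed level, in multiples of the 75th percentile, was 150 to 196 over the P. mume arrays and 278 to 418 over the P. armeniaca arrays. Of 6 lignin and stone markers 4 were called higher, with sums of 27.9 to 80.6 in P. mume and 16.3 to 33.5 in P. armeniaca. Of 3 green tissue markers 1 was called higher and 1 lower, with sums of 63.8 to 117 and 119 to 259. The single seed marker, the oleosin AY962832.1, differed by 2.09 ± 1.43 (SE) and was not called. This difference came from 1 array, Ruantiaohongmei replicate 2, at 1.06. Ruantiaohongmei replicate 1 stood at -5.66, and the arrays of the other cultivars at -6.40 to -5.14. The 16 ripening markers were the 10 expansins and 6 endopolygalacturonases given above, so they add no call to those. The ripening word pattern also named ACC oxidase, but it missed the 4 ACC oxidase probes given above, which are described by the full chemical name. Those 4 were called higher in P. mume and are not in the ripening sums. Sums over the 16 ripening markers were 102 to 272 in P. mume, highest on Ruantiaohongmei replicate 2, and 139 to 455 in P. armeniaca. The part of these markers in the beta-galactosidase differences was not tested.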

How the data were processed

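Fruit RNA of 4 cultivars was hybridised to 8 one-colour Agilent arrays. The scanner files hold intensity values, background-subtracted by Feature Extraction version 10.7.1.1 per the file headers (the submitters' processing notes name 8.1). The authors deposited log2 values for the 8 arrays, with a normalization not given in the sources used here, and 2-fold lists with a log2 ratio and fold per probe. No columns were left unmapped (0).

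Main values were log2 processed signal minus each array's 75th percentile over non-control probes. Control spots and 9 outlier spots were left out. The tests, in limma 3.58.1 (R 4.3.3), covered the 9125 probes that both arrays of some cultivar held well above background, with a call at a Benjamini-Hochberg adjusted p under 0.05. The species fit used cultivar as a random block (consensus correlation 0.081), and cultivar contrasts came from 1 fit of 4 means that shares 1 spread. The steps were tested on simulated data. Alternatives were normexp (offset 50, on the median signal because no mean signal column was present), quantile scaling, the deposited log2 values, other filters, limma's trend and robust options, other blocks, averaged cultivars and each array left out in turn. Correlations of replicate differences between cultivars ran from -0.18 (Zhenkui and Xiyeqing) to 0.39 (Manao and Zhenkui). These mixed values do not settle whether a shared replicate number pairs arrays. The main fits did not pair them, and the replicate number as a block was among the alternatives.

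All comparisons of the members, the difference between slide rows included, use contrasts that supplied the 2-fold lists. P-values of members are therefore given only as under 0.05 or not, as a description. The members and the word-pattern lists were chosen with earlier results of these data known. Genes named outside the family were the 3 nearest proteins of each probe and the called probe of each list with the largest difference each way, and a few others were named after their values were seen.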

Additional observations from a re-analysis of the deposited data

How the results depend on the processing

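All 7 beta-galactosidase probes were called in the species comparison, 4 higher and 3 lower in P. mume, under each of the 18 alternatives run. The probes were selected on this same contrast and these same arrays, so nothing is read from these counts. Of all tested probes, 25.8% were called with the arrays of a cultivar averaged first, the smallest share, and 45.8% without Manao replicate 2, the largest. With all arrays kept, the differences ranged from 3.01 to 3.15 for EF568777.1, 2.91 to 3.02 for EU370208.1, 2.17 to 2.28 for EF568776.1, 1.87 to 3.08 for AY987025.1, -1.95 to -1.82 for AF184080.1, -1.996 to -1.88 for AY874412.1 and -1.50 to -1.38 for GU462128.1. The median difference of all tested probes moved from -0.11 to 0.05 with the normexp correction. With the replicate number as a block, 7 probes were called between species (4 higher, 3 lower), 0 within species and 0 between the rows, and calls over all tested probes went from 3339 to 3094. The block changed no call of a beta-galactosidase. Leaving out each array in turn kept 7 of 7. Other cell wall probes called lower in P. mume numbered 5, and 9 with the arrays of a cultivar averaged first. They ranged from 4 to 9 with an array left out, the 9 without Zhenkui replicate 2.

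The difference between the rows, called for 0 of the 7 under the 15 alternatives run for it, changed sign for AY987025.1 with normexp (0.32) and without Xiyeqing replicate 2 (0.28). It also did so for EF568776.1 without Ruantiaohongmei replicate 1 (-0.048) and without Xiyeqing replicate 1 (-0.02), and for AY874412.1 without the same arrays (0.11 and 0.26). For EF568777.1 it did so without Ruantiaohongmei replicate 2 (0.16) and without Xiyeqing replicate 2 (0.97), and for EU370208.1 without Xiyeqing replicate 2 (0.54). The cause was not tested. With an array left out it ranged from -1.77 to 0.97 for EF568777.1, -2.29 to 0.54 for EU370208.1, -0.05 to 0.89 for EF568776.1, -2.24 to 0.28 for AY987025.1 and -0.39 to 0.26 for AY874412.1. Between Ruantiaohongmei and Xiyeqing, EU370208.1 moved from 1.03 to -0.38 without Xiyeqing replicate 1 and to 2.44 without replicate 2, and AY987025.1 from 1.20 to -0.06 and 2.46. With 2 arrays per cultivar, 1 array decides such differences, and the dim AY987025.1 is limited by its signal over background.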
